A study of Mus musculus with 9 samples.

Results

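The 84 genes described here are the cytoplasmic ribosomal protein genes of the mouse, measured by whole-brain RNA-seq. They were taken from the deposited tables by name: gene symbols that begin with Rpl or Rps, followed by a number, without pseudogenes named "-ps" and without the Rps6 kinases, and with at least 10 raw counts in each of the 9 libraries. Of 53465 genes in the table, 89 carried such a name and 84 reached the minimum, 50 of the large subunit and 34 of the small subunit. The closest member above the minimum was Rps29, with 11 to 24 counts, and the next were Rps27 with 24 to 45 and Rps13 with 29 to 59. The 5 names under it were Rpl3l (1 to 12 counts), Rpl32l (1 to 11), Rpl39l (0 to 4), and Rpl10l and Rps12l1, which were at 0 in each library. The reference annotation lists 4 of the 84 as processed pseudogenes despite their names (Rpl6l, Rps3a2, Rps3a3 and Rps4l).

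Male C57BL/6 mice, 7 weeks old at the start, formed 3 groups of 3 animals, with a separate library per mouse. CON mice had no induction of diabetes and received saline. DNP mice, the model of diabetic neuropathic pain, ate a diet of 60% fat for 4 weeks, were injected on 7 days with 50 mg/kg streptozotocin, which destroys the insulin-producing cells, and received saline, and BAC mice went through the same induction and then received the GABA-B receptor agonist baclofen at 8 mg/kg for 7 days. Diet and streptozotocin were always given together, so their effects cannot be told apart, and no group received baclofen alone. Depth was 13107382 to 16008129 counts per library.

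Ribosomal proteins and ribosomal RNA build both subunits of the cytoplasmic ribosome: the small subunit reads the mRNA and the large subunit joins amino acids. The cell needs these proteins in equal amounts, apart from the acidic stalk proteins, which occur in several copies. Their mRNAs are short and abundant, and most begin with a cytosine followed by a run of pyrimidines, the terminal oligopyrimidine (TOP) motif, through which mTOR and LARP1 control their translation. Each gene has also left many processed pseudogenes, DNA copies of its mRNA, in the genome.

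The start of the TOP motif could be read for the 60 members that have an entry in the RefSeq table of start sites (GRCm38.p6). A C followed by at least 4 pyrimidines stood exactly at the annotated start base in 13 of the 60 (21.7%), against 3.01% of 27025 genes, and within 5 bases of it in 29 (48.3%), against 21.2% of genes. The start windows of the 6 members that hold it at the start and that are named for their values below are shown here, with 30 bases before and 20 bases from the start base onward, and with the pyrimidine run from the start base in capitals.
Rpl14, chr9:120571487-120571536, plus strand: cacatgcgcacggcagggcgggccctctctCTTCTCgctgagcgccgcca
Rpl28, chr7:4792935-4792984, plus strand: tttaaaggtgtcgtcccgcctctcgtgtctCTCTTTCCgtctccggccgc
Rpl38, chr11:114668550-114668599, plus strand: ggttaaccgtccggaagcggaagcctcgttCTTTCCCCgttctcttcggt
Rplp2, chr7:141447621-141447670, plus strand: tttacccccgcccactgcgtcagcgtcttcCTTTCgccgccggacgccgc
Rps10, chr17:27635225-27635274, minus strand: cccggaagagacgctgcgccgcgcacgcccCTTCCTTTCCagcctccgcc
Rps27, chr3:90213629-90213678, minus strand: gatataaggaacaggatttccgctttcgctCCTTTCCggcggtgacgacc
In the 300 bases of each entry, 250 before the start, the letters CCGGAAG stood on either strand in 24 of the 60 members (40.0%) and in 9.93% of all genes. CCAAT on either strand before the start was found in 18 of the 60 members and 37.5% of genes, and TATAAA on either strand in the last 50 bases before it in 1.67% and 4.17%. These are matches of letters, and a missing match says only that the letters are not in this window.

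The libraries labelled whole brain held neuronal markers throughout, with 3826 to 5143 CPM (counts scaled to the same library size) on 5 pan-neuronal genes, but they differed in brain region. Markers of cerebellar granule cells, 10 genes summed, ranged from 150 to 6652 CPM in CON, 153 to 805 in DNP and 190 to 3507 in BAC. Markers of the caudal hindbrain and spinal cord, 9 genes, reached 384 CPM in DNP and 506 in BAC and at most 29.7 in CON, where Hoxb3, Hoxa5 and Hoxc4 were at 0, and stood high in the DNP 1, BAC 1 and BAC 3 libraries. Results are therefore also given without these 3 libraries, or without these and CON 2, the library with the most cerebellar markers. These fits do not match the groups for region. The granule cell markers, as mean log2 deviation from their means over the 9 libraries, stood at -1.66 in CON 1 and 1.09 in CON 3. In DNP 2 and DNP 3 they stood at -2.54 and -3.07. In bulk tissue, fewer cells of a type and less RNA per cell cannot be told apart.

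The share of all counts that fell on the 84 genes was lowest in CON. The 3 CON mice had 0.499%, 0.465% and 0.490%. The DNP mice had 0.653%, 0.722% and 0.713%, and for the BAC mice the share was 0.567%, 0.672% and 0.689%. Each DNP and each BAC library lay above each CON library, and BAC 1 was the lowest of the treated animals. Averaged over mice the share was 0.485% ± 0.0178 for CON, 0.696% ± 0.0375 for DNP and 0.643% ± 0.0661 for BAC (SD, n = 3), so the share in DNP was 1.44 times that in CON, and that in BAC 0.923 times that in DNP. Large subunit genes took 0.289% in CON, 0.409% in DNP and 0.378% in BAC, and small subunit genes 0.195%, 0.288% and 0.264%. On the FPKM scale, which divides each count by a gene length, the ratio of DNP to CON was smaller, at 1.26 (1.00% ± 0.0281 of summed FPKM in CON, 1.26% ± 0.0826 in DNP and 1.19% ± 0.108 in BAC). Mitochondrially encoded genes rank in the same order of group means, with 4.96% of counts for CON, 6.80% for DNP and 6.42% for BAC, and with them left out the ratio of DNP to CON was 1.46.

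**Figure D1:**
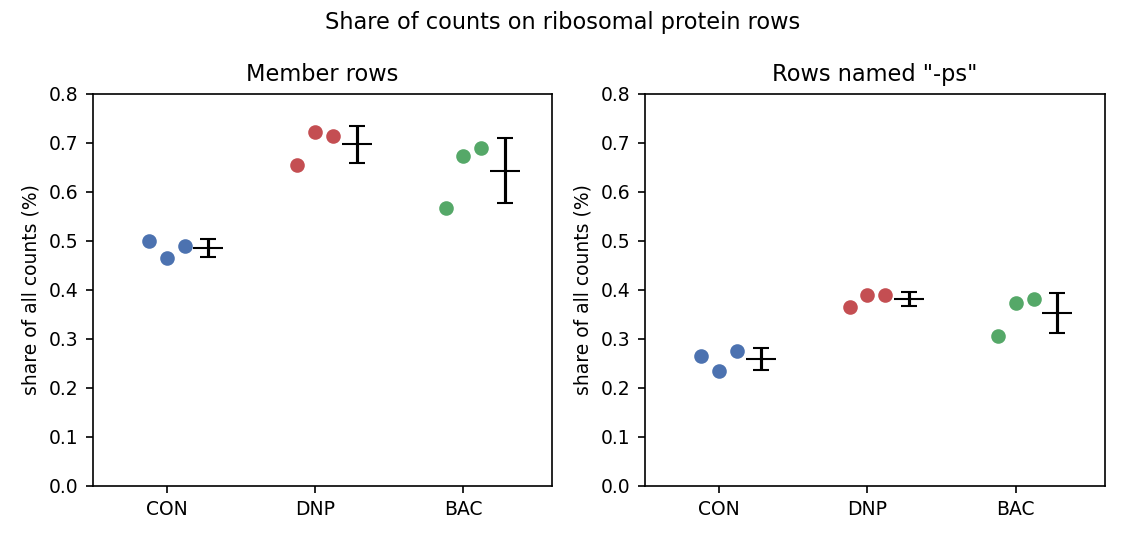
Percent of all counts in each library that fell on the 84 member rows (left) and on the rows of pseudogenes named "-ps" (right), with the mean and SD of 3 mice per group in black. In both panels each DNP and BAC library lies above each CON library, with BAC 1 lowest of the treated animals.

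Much of the reads of ribosomal protein mRNA in these tables does not stand on the genes themselves. The GRCm38 annotation holds 534 further genes in the count table whose transcript shares at least 30% of its 30-base windows with a member, 521 of them pseudogenes, and 80 members have at least 1 such copy. Of all counts these copies took 0.507% for CON, 0.730% for DNP and 0.670% for BAC, as much again as the members, and 51.1% ± 1.92, 51.2% ± 0.216 and 51.0% ± 0.626 of the sum of both. For 43 members the copies held more counts than the gene's own row, and for 29 they held more than 75%. How the counting treated reads that fit several places is not given in the sources used here. The division of reads between a gene and its copies is therefore uncertain, and a low count of a member with many copies is no measure of a low mRNA level.

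Rps29, a zinc-binding protein of the small subunit, is the example shown. Its row held 17, 11 and 17 counts in CON, 15, 21 and 24 in DNP and 20, 16 and 22 in BAC, a mean of 18.1, whereas its copies held 974, which is 98.2% of the sum. The copy with the most counts matched the whole coding sequence with no difference for 18 of 78 members compared, and with 1 to 5 differing bases for 33. Rpl36, on chr17:56613416-56614243, has its most counted copy, Rpl36-ps12, on chr6:108140120-108140509, and the copy differs in 3 of 315 coding bases. A read must cover such a base to tell gene from copy. Rpl36 held a mean of 461 counts on its own row and 675 on its copies.

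Levels between genes were compared per length, as mean CPM per kilobase of the principal transcript over the 9 libraries. This scale depends on the transcript taken. That of Rps20 has 3706 bases, 357 of them coding, and its own row gave 17.0 at a mean of 922 counts. On their own rows, the 80 protein-coding members ranged from 3.18 for Rps29 to 599 for Rplp1, with a median of 63.0 and quartiles of 25.6 and 131. With copies added, the median was 192 and the quartiles were 152 and 244, so that the upper quartile was 5.13 times the lower on the own rows and 1.61 times with copies. The largest value with copies was again that of Rplp1, a protein of the acidic stalk that binds translation factors, at 676, and the smallest was that of the paralog Rps27l, at 16.5. The 16 members with less than 5% of counts on copies ranged on their own rows from 16.3 for Rps27l to 378 for Rps15, with a median of 166. These 16 include the annotated pseudogenes Rpl6l, Rps3a3 and Rps4l, because members were not counted as copies of each other.

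**Figure D2:**
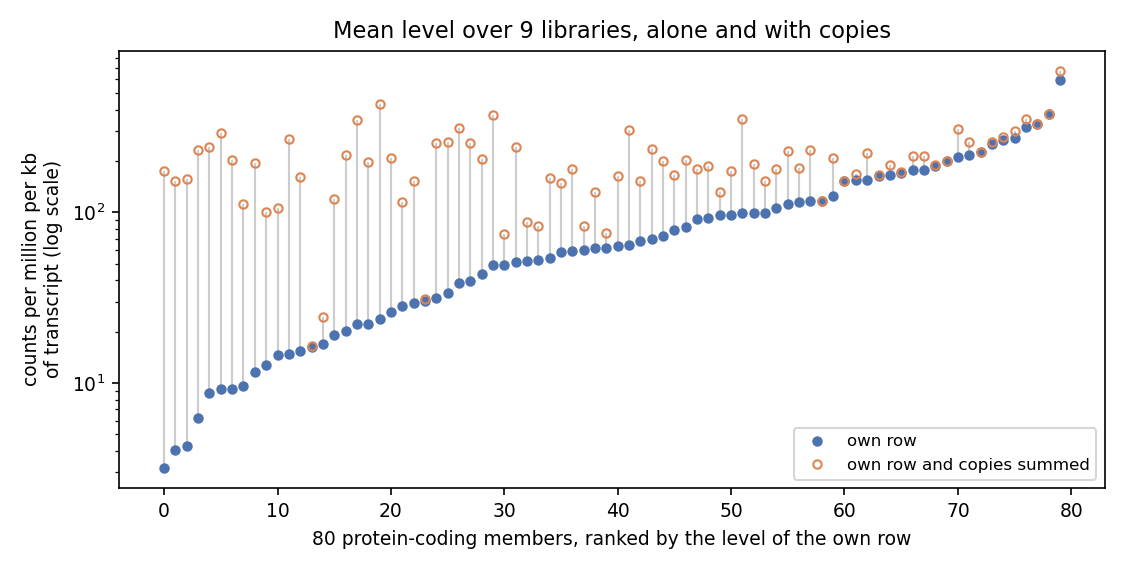
Mean level over 9 libraries, in CPM per kilobase of transcript on a log scale, of the 80 protein-coding members in order of their own rows (filled points), and with the counts of their copies added (open points). The filled points run from 3.18 to 599, and the middle of the open points, between their quartiles, runs from 152 to 244.

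The deposited FPKM ranked the members differently from this scale. Highest by mean FPKM were Rplp1 (599), Rpl8 (324) and Rps15 (226), and lowest were Rps13 (0.303), Rps27 (0.739) and Rpl10 (1.36), the last 3 being genes with more than 95% of counts on copies. The length by which the FPKM divides equals, for 72 of 84 members and within 1 base, the sum of all distinct annotated exons with overlapping exons of different isoforms counted again. That length was 3.77 times the principal transcript in the median and up to 18.6 times, so FPKM understates members with many annotated isoforms. A ratio between groups for a gene is not touched by this.

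Compared with CON, 82 of the 84 genes were higher in DNP, with a median log2 fold change of 0.47, whereas the median of all 18501 genes tested was 0.01 and 51.4% of them were higher. No member passed the adjusted threshold of 0.05 in edgeR's quasi-likelihood test, and neither did any other gene (0% called), the smallest adjusted p of a member being 0.294. At an unadjusted p under 0.05, 53 members were higher and 0 lower, where 5.71% of all genes were higher and 5.46% lower. In 63 members each DNP library lay above each CON library, which was so for 9.59% of all genes, and in 0 members the reverse held (8.63% of all genes). DESeq2, run as an alternative, called 14 members at its adjusted threshold, all higher, where 0.88% of its tested genes were called higher and 1.15% lower. Members share reads, length and library composition, so they are not independent of each other.

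The rows of members with the smallest p in this comparison showed DNP and CON groups that did not overlap. They were picked by p from these same libraries, so that separation is no further evidence. Rpl22l1, a paralog of the RNA-binding protein Rpl22, had 24.4, 23.8 and 23.2 CPM in CON, 38.2, 36.9 and 39.1 in DNP and 32.0, 37.4 and 43.6 in BAC, with a log2 fold change of DNP over CON of 0.68 (SE 0.14, edgeR adjusted p = 0.294). Rpl36, of the large subunit, stood at 21.7, 24.7 and 19.4 CPM in CON against 38.1, 36.2 and 39.8 in DNP and 27.5, 38.94 and 37.1 in BAC, a log2 fold change of 0.79 (SE 0.17). For both, each DNP library exceeded each CON library by more than the spread within either group. Rps26, a small subunit protein at the mRNA exit, had 56.3, 42.9 and 45.2 CPM in CON, 73.6, 86.1 and 83.0 in DNP and 61.9, 82.9 and 76.5 in BAC, and its log2 fold change was 0.75 (SE 0.16). Copies summed on their own gave 0.18 (SE 0.24) for Rps26, 0.62 (SE 0.19) for Rpl22l1 and 0.61 (SE 0.13) for Rpl36.

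Rps9, a small subunit protein, and Rpl14, a large subunit protein with the TOP start shown above, completed this set. Libraries were made without strand, and 22 members overlap exons of another gene, among them Rpl22l1 (with Gm33051), Rpl28 (with Ube2s) and Rps10. Rps9 had 108, 107 and 102 CPM in CON, 143, 166 and 158 in DNP and 125, 143 and 142 in BAC, with a log2 fold change of 0.56 (SE 0.12). Rpl14 had 78.0, 67.0 and 80.2 CPM in CON, 104, 120 and 125 in DNP and 91.1, 106 and 107 in BAC, with 0.63 (SE 0.14). Their copies alone gave 0.67 (SE 0.17) for Rps9 and 0.39 (SE 0.16) for Rpl14. The largest fold change of any member was that of Rps20, at 0.83 (SE 0.20), a small subunit gene named after its value was seen.

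**Figure D3:**
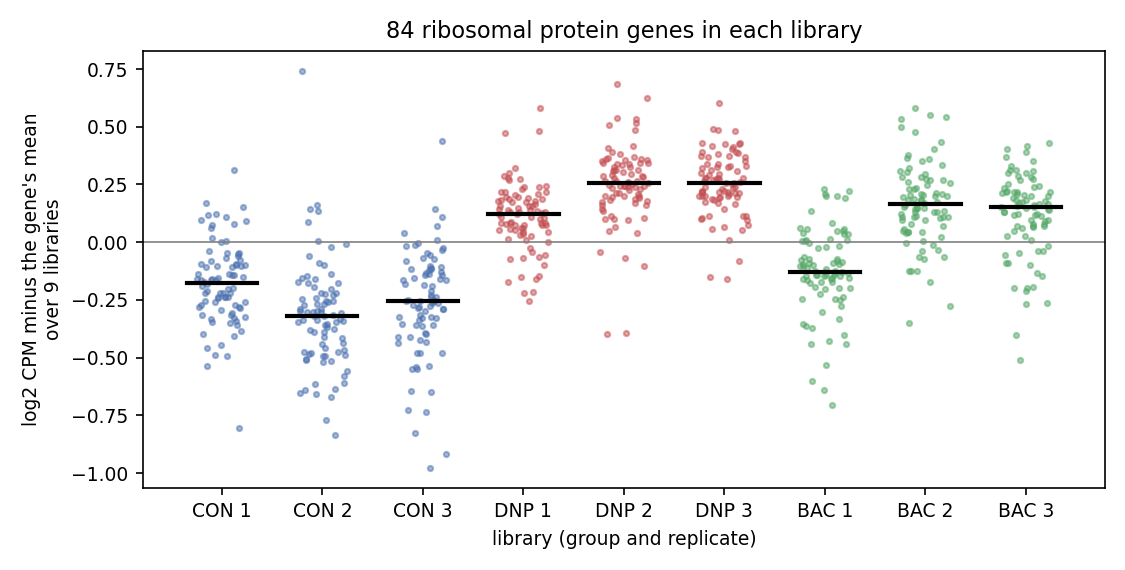
For each of the 9 libraries, the log2 CPM of each of the 84 genes minus that gene's mean over the libraries (points), with the median of the 84 as a black line. The medians of the CON libraries lie at -0.18, -0.32 and -0.25, those of DNP at 0.12, 0.26 and 0.26, and those of BAC at -0.13, 0.16 and 0.15.

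The 3 proteins of the P stalk were higher in DNP. Rplp1 had 278, 168 and 234 CPM in CON, 289, 416 and 403 in DNP and 198, 399 and 312 in BAC, with a log2 fold change of DNP over CON of 0.70 (SE 0.29), and its spread within each group was the widest of the 3. Rplp2 gave 0.53 (SE 0.19), from 51.6 to 56.1 CPM in CON and 59.9 to 87.9 in DNP. Rplp0, the scaffold of the stalk, gave 0.37 (SE 0.12), from 109 to 116 CPM in CON and 140 to 150 in DNP. The unadjusted p of these was 0.0411, 0.0217 and 0.0138, and none passed adjustment.

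Rpl5 and Rpl11 form the 5S ribonucleoprotein particle, which can also bind and restrain Mdm2. Rpl11 had 12.7, 14.5 and 12.3 CPM in CON, 19.8, 18.4 and 20.5 in DNP and 12.7, 19.3 and 20.3 in BAC, a log2 fold change of DNP over CON of 0.57 (SE 0.20). Rpl5 overlapped between groups, with 20.0 to 31.8 CPM in CON and 26.3 to 38.0 in DNP and a log2 fold change of 0.33 (SE 0.22). Both have more than 85% of their counts on copies, at 90.7% and 86.3%.

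Rpl41 encodes the shortest member, a peptide rich in arginine and lysine, and its whole coding sequence without the stop codon is 75 bases on chromosome 10.
Rpl41: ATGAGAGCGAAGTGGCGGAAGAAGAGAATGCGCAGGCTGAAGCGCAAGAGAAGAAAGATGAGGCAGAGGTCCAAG
It had 79.1, 50.9 and 87.4 CPM in CON, 97.4, 129 and 122 in DNP and 66.9, 136 and 85.4 in BAC, with a log2 fold change of DNP over CON of 0.68 (SE 0.29) and no overlap of these groups. Only Rps27a and Rps13 were lower in DNP. Rps27a, which is made as a fusion with ubiquitin, had 8.16, 10.6 and 13.1 CPM in CON and 8.69, 12.4 and 10.2 in DNP, a log2 fold change of -0.03 (SE 0.25), with 90.5% of its counts on copies. Rps13 had 29, 59 and 33 counts in CON and 29, 43 and 39 in DNP, a log2 fold change of -0.15 (SE 0.34), with 97.3% on copies. Both differences lie within the spread between replicates, and with copies added Rps27a gave 0.51 and Rps13 0.50.

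Across groups of members formed by subunit, copies and start site, the median log2 fold change of DNP over CON ran from 0.40 to 0.53. The median log2 fold change was 0.42 for the 50 large subunit genes and 0.51 for the 34 of the small subunit. It was 0.43 for the 29 members with more than 75% of counts on copies, 0.44 for the 16 with less than 5%, and 0.44 for the 6 whose transcript shares no 100-base window with another gene. Members were not counted as copies of each other, so the 16 include the annotated pseudogenes Rpl6l, Rps3a3 and Rps4l. They also include Rps3a1, which shares 45.3% of its 100-base windows with other genes, and are not a group free of copies. Members with the TOP start gave 0.49 (13 genes) and members with an entry but without it 0.49 (47). The 24 with CCGGAAG gave 0.53 and the 36 without it 0.40. The 10 genes listed because their human counterparts are mutated in Diamond-Blackfan anaemia gave 0.51, and the 4 members on the X chromosome 0.42. The copies, fitted as 1 row for each of 73 parents, gave 0.48, beside 0.49 for the own rows of those parents, and 71 of the 73 were higher in DNP. No difference between these groups of members was tested.

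The fold changes of all genes moved with gene length in this comparison. Among other genes, the median log2 fold change of DNP over CON was 0.19 for the 1486 with merged exons under 1000 bases, 0.18 for the 2435 between 1000 and 2000, 0.08 for the 5595 between 2000 and 4000, -0.05 for the 6129 between 4000 and 8000, and -0.19 for the 2739 of 8000 or more. The members gave 0.49 (15 genes), 0.49 (34), 0.40 (29) and 0.51 (6) in the first 4 ranges and lay above the other genes in each. When a trend on exon length was removed from each library, the median of the members was 0.33, and 31 were higher at an unadjusted p under 0.05. Removing GC content as well gave 0.33 and 32. The share of all genes at that p is not given for these fits, so the counts have no background of their own.

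**Figure D4:**
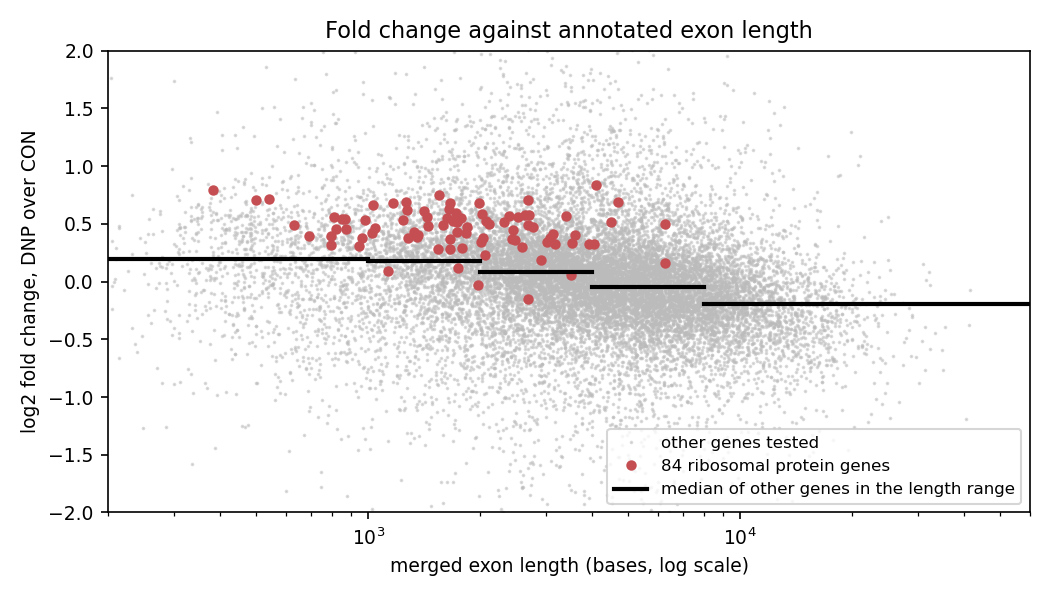
Log2 fold change of DNP over CON against the length of the merged annotated exons (log scale) for the genes tested (grey) and the 84 ribosomal protein genes (red), with the median of the other genes in 5 ranges of length (black). The black medians fall from 0.19 to -0.19 with length, and most red points lie above them. Values beyond 2 on either side are not drawn.

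Other gene lists moved with the same groups. The 5 erythroid markers, of which 4 are globins, were higher in DNP than in CON in 5 of 5, with a median log2 fold change of 1.55, a summed level of 190 to 205 CPM in CON, 477 to 683 in DNP and 465 to 755 in BAC, and none at 0. The 5 oligodendrocyte markers were also higher in 5 of 5, with a median of 1.31 and 1842 to 2546 CPM in CON, 3250 to 8256 in DNP and 2539 to 8664 in BAC. Markers of brain region also differed between DNP and CON. The 10 granule cell markers were lower in DNP in 10 of 10 (median -2.71) and the 6 Purkinje cell markers in 5 of 6 (-1.88). The 6 markers of excitatory forebrain neurons were lower in 6 of 6 (-0.42), and the 9 hindbrain markers were higher in 9 of 9 (5.88). The part of all these markers in the result on ribosomal protein genes was not tested. Without the libraries DNP 1, BAC 1 and BAC 3 the median of the members was 0.51, and without these and CON 2 it was 0.45. In these 2 fits BAC is a single library, assumed to vary like the others.

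Baclofen-treated mice were compared with DNP mice next. Of the 84 genes, 76 were lower in BAC, with a median log2 fold change of BAC over DNP of -0.13, beside -0.01 for all genes tested, of which 48.1% were higher. No member passed adjustment (0% of all genes called in edgeR), and 0 members had an unadjusted p under 0.05 in either direction, where 1.37% of all genes were higher and 1% lower. DESeq2 called 0 members (0.0217% of its genes higher and 0.0162% lower). In 0 members each BAC library lay above each DNP library (3.38% of all genes). In 9 members each BAC library lay below each DNP library (3.41% of all genes), namely Rpl19, Rpl21, Rpl24, Rpl28, Rpl38, Rps10, Rps3, Rps3a3 and Rps9. The size of the difference moved with single BAC libraries. Without BAC 1 the median was -0.05 and 27 members were higher in BAC, and without BAC 2 the median was -0.21. Without DNP 1, BAC 1 and BAC 3 it was -0.08, with 23 members higher. Markers of cell types and regions moved in this comparison too. The 6 markers of excitatory forebrain neurons were lower in 6 of 6 in BAC (median log2 fold change -1.37) and the 5 endothelial markers in 5 of 5 (-0.51, 2 at an unadjusted p under 0.05). The 5 astrocyte markers were higher in 5 of 5 (0.51), and so were the 10 granule cell markers (1.95) and the 9 hindbrain markers (2.22). Their part in the difference of the ribosomal protein genes was not tested.

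The 5 members with the smallest p here were all lower in BAC. Rpl28 had 9.05, 10.8 and 13.4 CPM in DNP and 5.74, 9.04 and 8.94 in BAC, with a log2 fold change of -0.49 (SE 0.25, edgeR adjusted p = 0.998), and 94.0% of its counts on copies. Rps10 had 18.6, 18.7 and 19.2 CPM in DNP and 13.6, 15.0 and 15.9 in BAC, -0.35 (SE 0.19), and was the member whose DNP libraries lay closest together among these 5. Rpl21 gave -0.26 (SE 0.14), Rpl38 -0.30 (SE 0.17) and Rplp2 -0.32 (SE 0.19). The groups did not overlap for the first 4, and for Rplp2 they did. As all 5 were picked by p from these libraries, this separation is no further evidence.

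BAC was last compared with CON, in a contrast that shares the CON libraries with the first and the BAC libraries with the second, so its values only stand beside theirs. The median log2 fold change of BAC over CON was 0.32 over the members and -0.02 over all genes, and 79 members were higher, against 48.2% of all genes. No member passed adjustment in edgeR (0% of genes called), and 28 were higher at an unadjusted p under 0.05 (4.46% of all genes), with 0 lower (3.3%). In 28 members each BAC library lay above each CON library (7.21%), and in 0 members below (6.23%). DESeq2 called 3 members, all higher (0.36% of its genes higher and 0.208% lower): Rpl7, Rps3a2 and Rpl22l1. The count of 28 was 18 without CON 2, 16 without BAC 2 and 13 without BAC 3. Over all 6 libraries left out in turn it ran from 13 to 39, so it also rose.

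Rpl7, a large subunit protein, had 142, 145 and 138 CPM in CON and 188, 187 and 214 in BAC, with a log2 fold change of BAC over CON of 0.47 (SE 0.12, edgeR adjusted p = 0.628). Rps3a2, an annotated processed pseudogene that shares 78.6% of its 100-base windows with other genes, had 64.3, 62.3 and 64.7 CPM in CON and 88.5, 79.5 and 88.7 in BAC, 0.42 (SE 0.11). Rpl22l1 gave 0.66 (SE 0.14), Rpl36 0.65 (SE 0.17) and Rps26 0.61 (SE 0.16). In all 5 the BAC libraries lay above the CON libraries, but they were picked as the members with the smallest p in these same libraries.

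Over the 9 libraries, 73 of the 84 genes had their lowest value in a CON library, 40 of them in CON 2, and 57 had their highest in a DNP library. Of all 18501 genes tested, 38.92% had their lowest value in a CON library, 19.0% in CON 2, and 32.9% their highest in a DNP library.

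Some ribosomal proteins have a paralog encoded by a separate gene. The log2 ratio of the paralog to the main gene in CPM was compared for the 5 pairs in which both are members. With 3 mice against 3, the exact two-sided permutation test cannot go below p = 0.1, and 15 comparisons were made. For Rpl22l1 to Rpl22 the ratio was -1.70, -1.43 and -1.76 in CON, -0.997, -1.38 and -1.08 in DNP and -1.18, -1.08 and -1.09 in BAC, a difference of 0.48 for DNP minus CON (exact permutation p = 0.1, adjusted 0.375). The same values of p belong to BAC minus CON, with 0.51. For Rpl7l1 to Rpl7 it was -2.08, -1.72 and -1.83 in CON, -2.31, -2.33 and -2.29 in DNP and -2.18, -2.40 and -2.24 in BAC, and the differences from CON were -0.43 and -0.39, also at p = 0.1 in the exact test. In the first pair Rpl22 itself overlapped between DNP and CON, with a log2 fold change of 0.19 (SE 0.16), and in the second Rpl7l1, which acts in ribosome assembly, did so with 0.05 (SE 0.15).

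The other 3 pairs overlapped in each comparison. Rpl36al to Rpl36a differed by 0.16 between DNP and CON, Rps27l to Rps27 by 0.07 and Rps4l to Rps4x by -0.28, with exact permutation p of 0.6, 1 and 0.5. Rps27 and Rpl36a have 97.3% and 87.3% of their counts on copies, and Rps4l is annotated as a transcribed processed pseudogene, so these ratios depend on where reads were placed. The pairs of Rpl22l1 and Rpl7 are not free of this, with 27.7% of counts on copies for Rpl22l1 and 8.06% for Rpl7. BAC minus DNP lay between -0.20 and 0.04 over the 5 pairs.

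Rpsa, Fau and Rack1, ribosomal protein genes whose names the rule does not match, were higher in DNP as well. Rpsa, the laminin receptor of the small subunit, had 195, 150 and 170 CPM in CON and 216, 267 and 266 in DNP, a log2 fold change of 0.54 (SE 0.18). Fau, made as a fusion with a ubiquitin-like protein, gave 0.38 (SE 0.14), and Rack1, a signalling scaffold on the small subunit, 0.28 (SE 0.15). Groups did not overlap for any of the 3 between DNP and CON, and Rpsa and Fau had an unadjusted p under 0.05 in edgeR.

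Other genes of translation were taken by list. Of 14 other genes with TOP mRNAs, mostly elongation and initiation factors, 13 were higher in DNP, with a median log2 fold change of 0.31, 6 higher at an unadjusted p under 0.05 and 0 lower. Over all genes tested, 51.4% were higher, with 5.71% higher and 5.46% lower at that p, and the counts of the next lists are set beside these shares. Tpt1, a translationally controlled protein, gave 0.66 (SE 0.12) from 34.8 to 38.6 CPM in CON and 56.2 to 58.3 in DNP, and Eef1b2, an exchange factor of elongation factor 1, gave 0.46 (SE 0.16). Of 78 mitochondrial ribosomal protein genes, which serve the separate ribosome of mitochondria, 71 were higher, with a median of 0.24, 13 higher at that p, against 5.71% of all genes, and 0 lower. Of these, named outside the written rule, Mrpl52 gave 0.76 (SE 0.17) and Mrpl13 0.55 (SE 0.13).

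Ribosome assembly factors had a median close to that of all genes. Of 41 tested, 23 were higher and 18 lower in DNP, with a median of 0.02, and 1 was higher at an unadjusted p under 0.05 (5.71% of all genes), Nop10, a subunit of the box H/ACA particle (0.50, SE 0.16). Nop56, of the box C/D particle, gave 0.28 (SE 0.14). Of 16 genes of mTOR signalling and TOP control, 13 were lower, with a median of -0.20 and 2 lower at that p (5.46% of all genes). These were Eif4ebp2, a repressor of cap-dependent translation, at -0.45 (SE 0.15), and Rptor, a subunit of mTOR complex 1, at -0.40 (SE 0.16). None of these lists held a gene past the adjusted threshold, and no difference between lists was tested. Among genes other than the members, the median ran from 0.19 under 1000 bases of merged exons to -0.19 at 8000 or more. The lists of other genes, mitochondrial ribosomal proteins included, were not compared with genes of their own length.

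**Figure D5:**
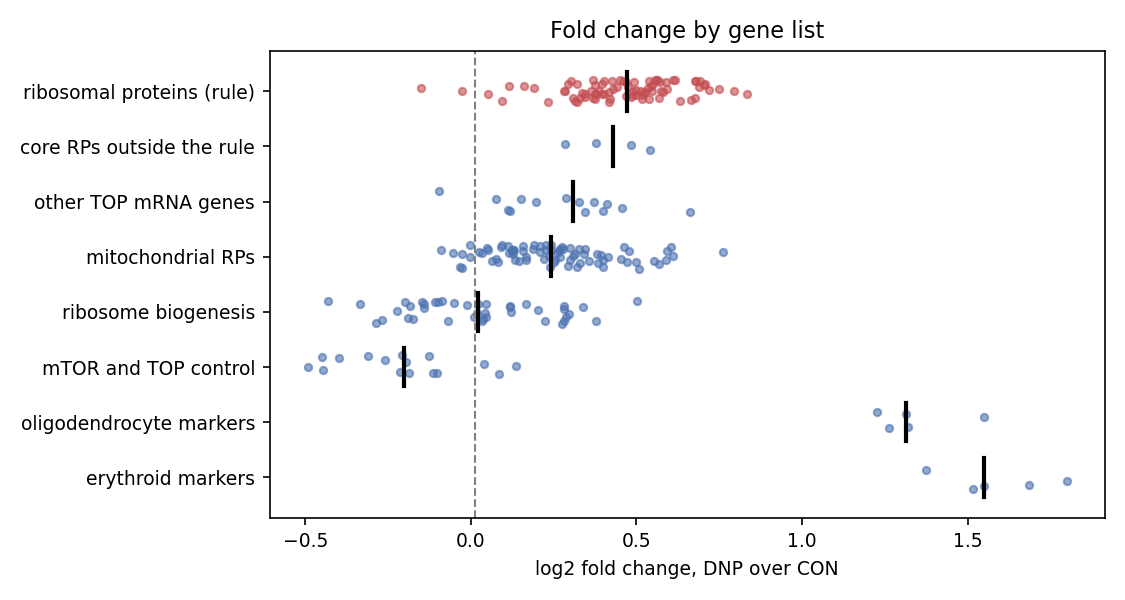
Log2 fold change of DNP over CON for the genes of 8 lists (points), with the median of each list as a black line and the median of all genes tested as a dashed line. The 84 ribosomal protein genes have a median of 0.47, ribosome biogenesis genes 0.02 and mTOR genes -0.20, and the erythroid and oligodendrocyte markers lie above 1.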

How the data were processed

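Whole-brain poly(A) RNA of 9 mice was sequenced without strand information. Per the labels and the study's methods, the authors ran FastQC 0.11.9, fastp, Bowtie2 2.3.4.1, HISAT2 2.1.0 on GRCm38 and StringTie 1.3.3b, and deposited raw counts and FPKM per gene. How reads with several places were counted is not given in the sources used here. The authors' FPKM values divide counts by a length that repeats shared exons.

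Counts were tested in edgeR 4.0.16 (R 4.3.3) with the quasi-likelihood test, TMM factors, a count minimum of 10 and group as the only term, over 18501 genes, with Benjamini-Hochberg adjustment at 0.05. Alternatives were DESeq2 1.42.0, limma 3.58.1 on log2 FPKM with pseudocounts of 1 and 0.1, other scalings, length offsets and left-out libraries, 20 planned and 6 chosen after seeing the data. Paralog ratios, on CPM plus 0.5, were compared by exact two-sided permutation in SciPy 1.17.1. Copies, and features of start sites, came from the GRCm38 annotation and RefSeq. The members and lists were chosen with earlier results of these data known. Named genes are the 5 members with the smallest p per comparison, the P stalk, Rpl5, Rpl11, Rps27a, Rpl41, paralogs with their main genes, the 3 highest and 3 lowest members by FPKM, further ribosomal proteins outside the name rule and the smallest-p pair of each other list. Mitochondrial ribosomal proteins were added later. Depth was 13107382 to 16008129 counts per library. Some items are not reported here.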

Additional observations from a re-analysis of the deposited data

How the results depend on the processing

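No member passed the adjusted threshold in edgeR under any alternative of that tool run here, and DESeq2 called 14 in DNP versus CON and 3 in BAC versus CON. The median log2 fold change of the members in DNP versus CON, 0.47, was 0.38 with an offset on the length implied by FPKM, 0.33 with annotated exon length and 0.33 with length and GC content, and the 53 members at an unadjusted p under 0.05 became 31 and 32 under the last 2. For BAC versus CON that count, 28, was 18 with only the 2 groups compared and 17 with annotated exon length. Here and below, counts at that p under alternatives of edgeR stand without the share of all genes in the same fit. Of the 84 members, 8 were higher in BAC than in DNP, and 15 with annotated exon length, 20 with length and GC, 4 with copies summed, and 23 both without the 3 libraries with hindbrain markers and without these and CON 2. The share ratio of DNP to CON, 1.44, was 1.26 on summed FPKM. The cause was not tested for any of these.

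Leaving out each library in turn gave 36 to 50 members at that p and a median of 0.41 to 0.52 for DNP versus CON, 6 to 27 members above 0 and a median of -0.21 to -0.05 for BAC versus DNP, and 13 to 39 members and 0.27 to 0.39 for BAC versus CON. The share ratio ran from 1.41 to 1.48, from 0.890 to 0.978 and from 1.28 to 1.40. The paralog ratios that turned their sign were Rpl22l1 to Rpl22 (-0.0778 to 0.11), Rpl7l1 to Rpl7 (-0.0098 to 0.10), Rpl36al to Rpl36a (-0.27 to 0.0873), Rps27l to Rps27 (-0.39 to 0.11) and Rps4l to Rps4x (-0.29 to 0.27) in BAC versus DNP, Rps27l to Rps27 (-0.16 to 0.25) and Rps4l to Rps4x (-0.55 to 0.0139) in DNP versus CON, and Rpl36al to Rpl36a (-0.11 to 0.26) and Rps27l to Rps27 (-0.32 to 0.18) in BAC versus CON.

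The log2 fold change of DNP over CON was followed gene by gene for 42 genes, those listed as named genes with the processing. Of the members among these, 4 turned its sign under some alternative. The remaining members were not followed singly. They include Rps20, Rps29, Rps3, Rps3a1, Rps3a3, Rpl6l, Rpl19 and Rpl24, although the text mentions them, so whether their signs hold was not tested. Rps27a was 0.0112 by library totals, 0.0173 and 0.0244 by limma, 0.51 with copies summed, 0.0742 and 0.0844 without the 3 or 4 libraries, and -0.19 to 0.15 with 1 library left out. Rpl7l1 was -0.0598, -0.0042 and -0.0080 under the 3 length offsets and -0.0419 to 0.15 with 1 left out. Rps4l was -0.0450 without the 4 libraries. Rps13 was 0.50 with copies summed, 0.37 without the 4 libraries and -0.36 to 0.25 with 1 left out.

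The labels do not say whether the replicate numbers pair the mice. Deviations of same-numbered libraries from their group means correlated at -0.579 to 0.560 over 9 pairs. Differently numbered libraries of different groups gave -0.701 to 0.614 over 18 pairs. These ranges overlap, so they cannot decide whether the mice were paired. With the number as a block, medians were 0.46, -0.13 and 0.32, and 47, 0 and 21 members were higher at an unadjusted p under 0.05.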
